A study of Homo sapiens with 6 samples.

Results

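The genes of the extracellular matrix described here are 44 human genes for collagens, laminins, other basement membrane components, matrix glycoproteins, proteoglycans and the enzymes that crosslink collagen and elastin. They were chosen by name and by the known function of their products. No measured value was used, but earlier results of these data were known at the time. All 44 were among the 20683 genes listed in the count files, and 36 were among the 11216 genes that passed a filter on low counts and were tested. The cells were HT-1080, an established human fibrosarcoma line (a tumour of mesenchymal cells). The inhibitor group was given an IRAK4 inhibitor with the code name SLV-8472-01 for 24 h, at 5 mM according to the labels, where no source used here bears on the unit. The control group was given 0.1% DMSO for 24 h. Dishes of both groups had been left overnight in MEM with serum after seeding, and each group had 3 libraries, inhibitor 1 to 3 and DMSO 1 to 3, called biological replicates by the submitters. A single cell line was studied, and the sources used here do not say whether the 3 dishes were handled on separate days, so p-values measure the spread between these libraries.

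The extracellular matrix is made of proteins that cells secrete and assemble outside the plasma membrane. Fibrillar collagens form the cables of connective tissue, whereas basement membranes are thin sheets in which laminin trimers and a network of type IV collagen are joined by nidogens and by heparan sulfate proteoglycans such as perlecan. Glycoproteins such as fibronectin, fibrillins and thrombospondins bind cells, growth factors and collagens, and lysyl oxidases link the finished fibres. HT-1080 cells have long been used to study how tumour cells degrade and cross basement membranes.

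Each gene was read through a short PCR product of a targeted panel, so values are given in CPM, the count of a gene as its part of the library total, scaled between libraries by the TMM method. Products differ in how well they amplify, so a difference in CPM between genes is not a difference in transcript number. Library totals ranged from 9162281 to 13184553 counts. The DMSO libraries differed more among themselves than the inhibitor libraries: the mean of the median absolute log2 differences to the other libraries of the group was 0.298 for DMSO 3, 0.251 for DMSO 1 and 0.218 for DMSO 2, and 0.143 to 0.148 for the inhibitor libraries. The Spearman correlation between the GC content of a gene and its deviation from the group mean was 0.536 in DMSO 1, 0.127 in DMSO 2 and -0.491 in DMSO 3, so DMSO 1 and DMSO 3 deviated in opposite directions, against -0.117 to 0.155 in the inhibitor libraries (9189 genes). For that reason results that rest on either of these 2 controls are also given without it. Vimentin (VIM), a mesenchymal intermediate filament, had 6135 to 6290 CPM in the inhibitor libraries and 5315 to 6458 CPM in the DMSO libraries, and the mesenchymal markers CD248 and THY1 had at most 1 count in any library. The epithelial markers summed to 0.408 to 0.624 CPM in the inhibitor libraries and 0.113 to 0.626 CPM in the DMSO libraries, with CDH1 and KRT5 at 0 throughout. Endothelial markers summed to 2.58 to 3.59 CPM with the inhibitor and 2.82 to 4.50 CPM with DMSO. Leukocyte markers summed to 1.63 to 2.91 CPM with the inhibitor and 1.88 to 2.25 CPM with DMSO. VWF, PTPRC, CD3E and CD79A were at 0 throughout. Most endothelial counts came from PECAM1 and TEK, and most leukocyte counts from CSF1R. Summed counts with the inhibitor and with DMSO were 50 and 35 for PECAM1, 29 and 69 for TEK, and 63 and 68 for CSF1R. TEK was lower in every inhibitor library than in every DMSO library. Its log2 fold change was -1.18 (SE 0.379, edgeR adjusted p = 0.102).

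Under DMSO, HT-1080 cells gave matrix counts that came mostly from SPARC, LAMB3 and THBS1, with all 14 basement membrane genes and 3 of the 6 fibrillar collagen genes detected. Of the 44 genes, 36 had at least 10 counts in every DMSO library. Mean levels were at least 100 CPM for 13 genes, between 10 and 100 CPM for 16, between 1 and 10 CPM for 7 and under 1 CPM for 8. SPARC, a secreted glycoprotein that binds collagen, was highest, at 2141, 2178 and 1583 CPM in DMSO 1, 2 and 3, and ranked 51 among all listed genes. LAMB3, the beta chain that joins LAMA3 in the laminin of epithelial anchorage, followed at 1488, 1198 and 916 CPM and rank 113. THBS1, a thrombospondin that binds cells and growth factors, stood at 837, 843 and 1092 CPM. These 3 genes gave 55.4%, 56.0% and 50.7% of the counts of the 44 genes in DMSO 1, 2 and 3. All 44 genes together took 0.782%, 0.750% and 0.686% of the counts of DMSO 1, 2 and 3.

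**Figure D1:**
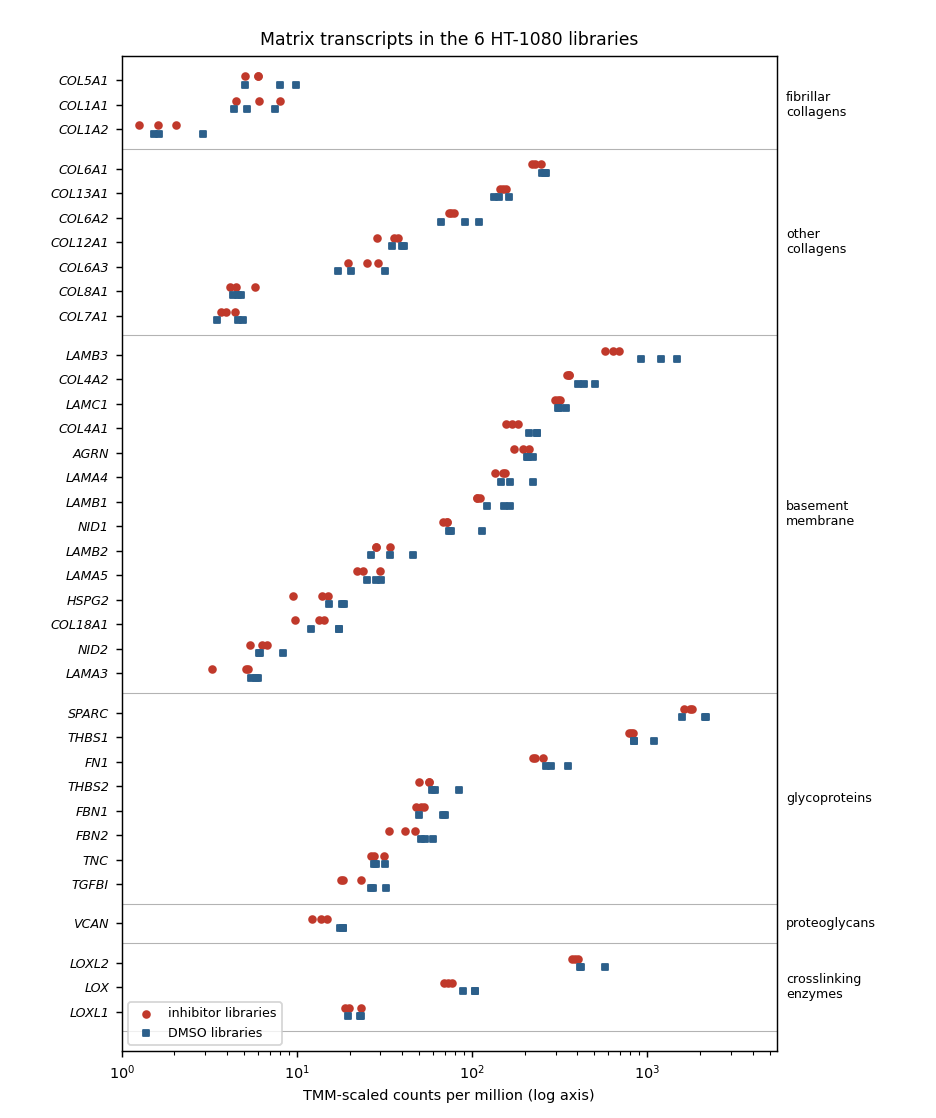
Level of each of the 36 tested matrix genes in each library, in TMM-scaled CPM on a log axis, with genes in their functional groups, circles for the inhibitor libraries and squares for the DMSO libraries. SPARC, LAMB3 and THBS1 are the highest in DMSO, and the 8 genes that were not tested are not drawn.

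The plot of CPM by gene and library shows how the groups differed in level under DMSO. Type IV collagen chains stood at 448 ± 49.7 CPM for COL4A2 and 226 ± 13.3 CPM for COL4A1 (SD, n = 3 DMSO libraries). LAMC1, the gamma chain of most laminins, had 324 ± 19.5 CPM, LAMA4 had 178 ± 39.96 CPM and LAMB1 had 147 ± 21.7 CPM, whereas LAMA3, the partner of LAMB3, had 5.77 ± 0.257 CPM. Of the 6 fibrillar collagen genes, COL5A1, COL1A1 and COL1A2 were detected, at 7.64 ± 2.41 CPM, 5.69 ± 1.62 CPM and 2.03 ± 0.779 CPM. COL3A1 and COL11A1 had 0 counts in the 3 DMSO libraries together, which allows a level of up to 0.0862 CPM (3 counts of the group's total). Among the proteoglycans VCAN, the large hyaluronan-binding versican, had 18.2 ± 0.487 CPM, and BGN, DCN and LUM, the small leucine-rich proteoglycans, had 4, 1 and 0 counts in the DMSO libraries together. Among the crosslinking enzymes LOXL2 had 468 ± 93.1 CPM, LOX 99.3 ± 8.77 CPM and LOXL1 21.9 ± 2.02 CPM.

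With the inhibitor, LAMB3 fell and was the single gene among the 36 tested matrix genes to pass edgeR's threshold in either direction with all libraries. Over all genes tested, 1.92% were called lower and 1.95% higher at an adjusted p under 0.05 (edgeR's quasi-likelihood test, Benjamini-Hochberg adjustment over 11216 genes). Before adjustment, 11 matrix genes were lower and 0 higher at p under 0.05, against 9.23% lower and 10.3% higher over all genes. Their names are COL4A1, COL4A2, LAMB1, LAMB3, HSPG2, FN1, THBS2, FBN2, TGFBI, VCAN and LOX. The log2 fold change was negative for 32 of the 36 genes, against 50.6% of all genes, with a median of -0.26 and a range of -0.92 to 0.10. The median over all tested genes was -0.00438. All 3 inhibitor libraries lay below all 3 DMSO libraries for 16 of the 36 genes, against 11.8% of all genes, and above them for 0, against 13.7% of all genes. In these bulk libraries, fewer cells of a kind and less RNA per cell cannot be told apart.

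Without DMSO 3, 16 of the 36 genes were called lower and 0 higher by edgeR, where 11.1% of all genes were called lower and 10.8% higher, and 1 gene, COL6A3, was higher before adjustment. These 16 were LAMB3, LAMB1, LAMB2, COL4A1, COL4A2, HSPG2, COL18A1, COL5A1, COL6A2, TGFBI, FBN2, THBS2, SPARC, VCAN, LOX and LOXL2. The median log2 fold change was then -0.25. Without DMSO 1, edgeR called 1 matrix gene lower (LAMB3) and 0 higher, against 2.03% and 1.73% of all genes, and the median was -0.24, so the larger count came with the removal of DMSO 3 and not with that of DMSO 1. COL4A1, LAMB1, LOX and TGFBI were called lower beside LAMB3, with all 6 libraries in the fit, by DESeq2 (2.72% of all genes called lower), without the filter on low counts (2.79%) and with the GC trend of each library removed (3.23%). Library quality weights in limma-voom called 14 matrix genes lower, against 10.9% of all genes. Without inhibitor 2, edgeR called 0 matrix genes (7 lower and 0 higher at an unadjusted p under 0.05), and LAMB3 had an adjusted p of 0.063. The calls over all genes also fell without that library, from 434 to 99. Its unadjusted share over all genes was not computed.

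**Figure D2:**
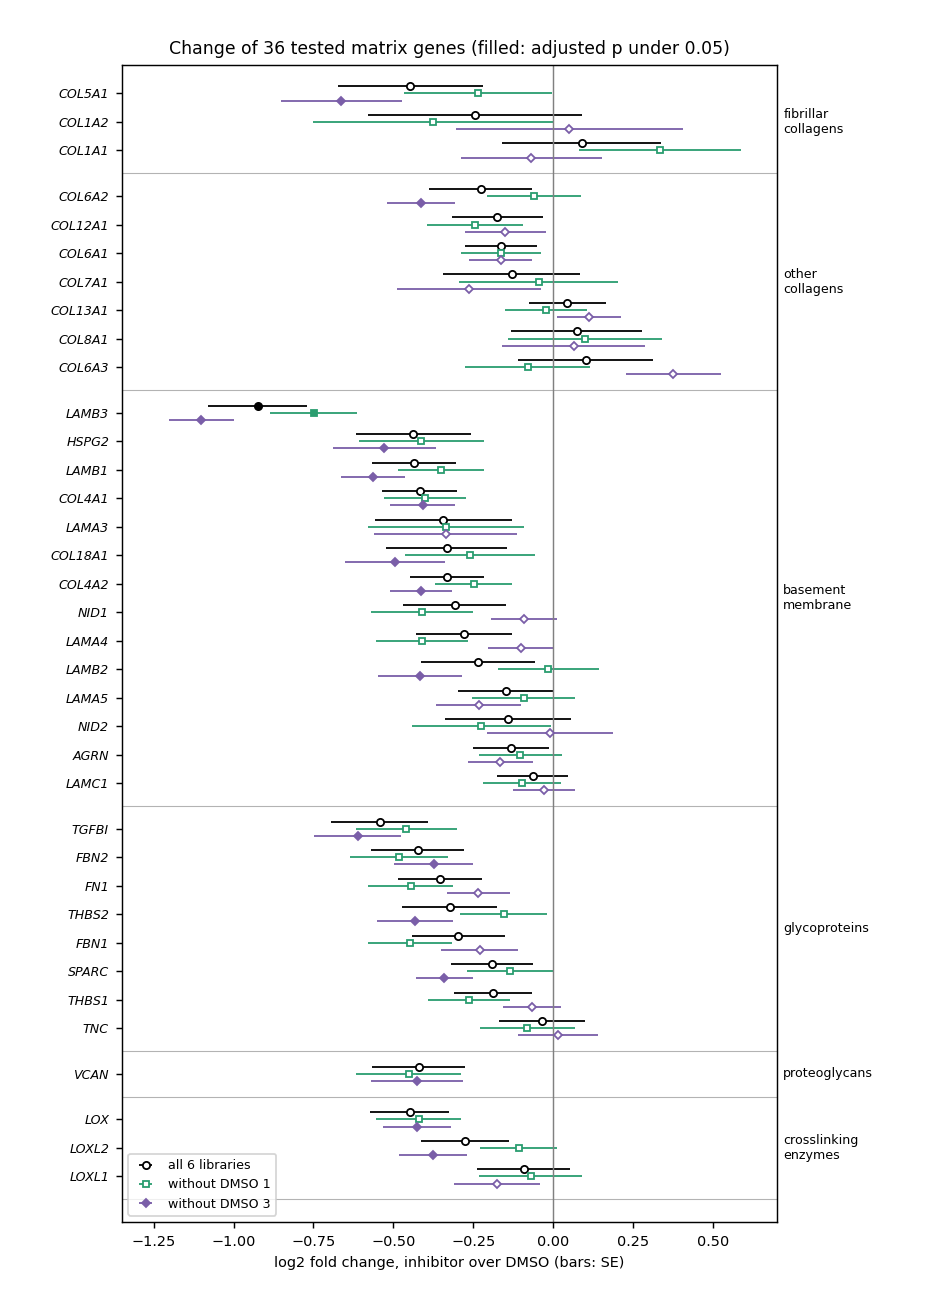
Log2 fold change of inhibitor over DMSO for the 36 tested matrix genes with all 6 libraries, without DMSO 1 and without DMSO 3, with bars of 1 SE; filled marks passed edgeR's adjusted threshold. LAMB3 is lowest in each fit, at -0.92, -0.75 and -1.10, and passes without DMSO 1 as the single gene, and 32 of 36 genes lie below 0 with all libraries.

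As shares of a library, the 44 genes took 0.623%, 0.604% and 0.633% of the counts of inhibitor 1, 2 and 3, against 0.782%, 0.750% and 0.686% of DMSO 1, 2 and 3. The groups did not overlap. Basement membrane genes took 0.217%, 0.203% and 0.216% with the inhibitor and 0.317%, 0.286% and 0.258% with DMSO. LAMB3, the gene with the most counts in this group, had a mean of 633 CPM with the inhibitor and 1201 CPM with DMSO. It weighs most in the share of the group, and a share without it was not computed. Glycoproteins took 0.296%, 0.299% and 0.312% with the inhibitor and 0.338%, 0.353% and 0.318% with DMSO, again with no overlap. For the collagens outside the fibrillar and type IV families the shares were 0.0555%, 0.0512% and 0.0545% with the inhibitor and 0.0551%, 0.0552% and 0.0557% with DMSO, and the groups overlapped.

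Among the basement membrane genes, edgeR with all libraries called 1 of 14 lower (LAMB3) and 0 higher, against 1.92% and 1.95% of all genes, and 13 did not pass. At an unadjusted p under 0.05 in edgeR, 5 were lower and 0 higher, against 9.23% and 10.3% over all genes. DESeq2 called COL4A1, LAMB1 and LAMB3 lower, where 2.72% of all genes were called lower. All 14 had a negative log2 fold change, with a median of -0.32. LAMB3 had 636, 573 and 689 CPM in inhibitor 1, 2 and 3, against 1488, 1198 and 916 CPM in DMSO 1, 2 and 3. Every inhibitor library was lower than every DMSO library, and the DMSO libraries were further apart than the inhibitor libraries. The means were 633 ± 57.9 CPM with the inhibitor and 1201 ± 286 CPM with DMSO (SD, n = 3 each), a log2 fold change of -0.92, with an SE of 0.155 and an edgeR adjusted p of 0.00442. Without DMSO 3, the lowest of the controls, the log2 fold change was -1.10 (SE 0.101, edgeR adjusted p = 7.74e-10), and without DMSO 1, the highest, it was -0.75 (SE 0.136, edgeR adjusted p = 0.00423).

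No other laminin chain passed the threshold in edgeR with all libraries, whereas DESeq2 called LAMB1 lower (adjusted p = 0.0421). LAMA3, the alpha chain that pairs with LAMB3, had 5.23, 3.298 and 5.096 CPM in inhibitor 1, 2 and 3, against 5.87, 5.48 and 5.97 CPM in DMSO 1, 2 and 3. Its groups did not overlap, on 150 summed counts with the inhibitor and 200 with DMSO, and it had a log2 change of -0.34 (SE 0.214, adjusted p = 0.401 in edgeR). The ratio of LAMB3 to LAMC1 counts was 2.06, 1.79 and 2.300 in inhibitor 1, 2 and 3, against 4.78, 3.82 and 2.65 in DMSO 1, 2 and 3, with no overlap. That is a log2 difference of -0.84, with an exact two-sided permutation p of 0.1, the smallest that 3 against 3 libraries allow, and an adjusted p of 0.25 over 5 ratios, all chosen after the values were seen.

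LAMB1 and LAMC1 encode the beta and gamma chains of the more widespread laminins. LAMB1 had 111, 107 and 107 CPM in inhibitor 1, 2 and 3, against 165, 152 and 122 CPM in DMSO 1, 2 and 3. Its inhibitor values lay within a narrow range below all controls, with a log2 change of -0.44 (SE 0.131, adjusted p = 0.0818 in edgeR), and -0.56 (SE 0.0995, edgeR adjusted p = 0.000117) without DMSO 3. Without DMSO 1, the highest library, the log2 change was -0.35 (SE 0.134, edgeR adjusted p = 0.161). LAMC1 had 309, 319.8 and 299 CPM in inhibitor 1, 2 and 3, against 311, 313 and 346 CPM in DMSO 1, 2 and 3. The groups overlapped, with a log2 change of -0.06 (SE 0.110, adjusted p = 0.803 in edgeR). The LAMB1 to LAMC1 ratio was 0.359, 0.334 and 0.358 with the inhibitor, against 0.529, 0.486 and 0.354 with DMSO, and DMSO 3 lay within the inhibitor values (exact two-sided permutation p = 0.3). LAMB2, the beta chain that takes the place of LAMB1 at synapses and in the kidney filter, had 28.3, 28.3 and 34.2 CPM in inhibitor 1, 2 and 3, against 45.8, 34.02 and 26.5 CPM in DMSO 1, 2 and 3. DMSO 3 was the lowest of all 6 libraries, and the log2 change of -0.24 (SE 0.180, edgeR adjusted p = 0.515) became -0.42 (SE 0.132, edgeR adjusted p = 0.0212) without it. Without DMSO 1, the highest library, it was -0.016 (SE 0.158, edgeR adjusted p = 0.975). The alpha chains LAMA4 and LAMA5 had overlapping groups, with log2 fold changes of -0.28 and -0.15. LAMA4 stood at -0.10 (SE 0.103, edgeR adjusted p = 0.52) without DMSO 3, its highest library. Without DMSO 1 it stood at -0.41 (SE 0.143, edgeR adjusted p = 0.124).

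**Figure D3:**
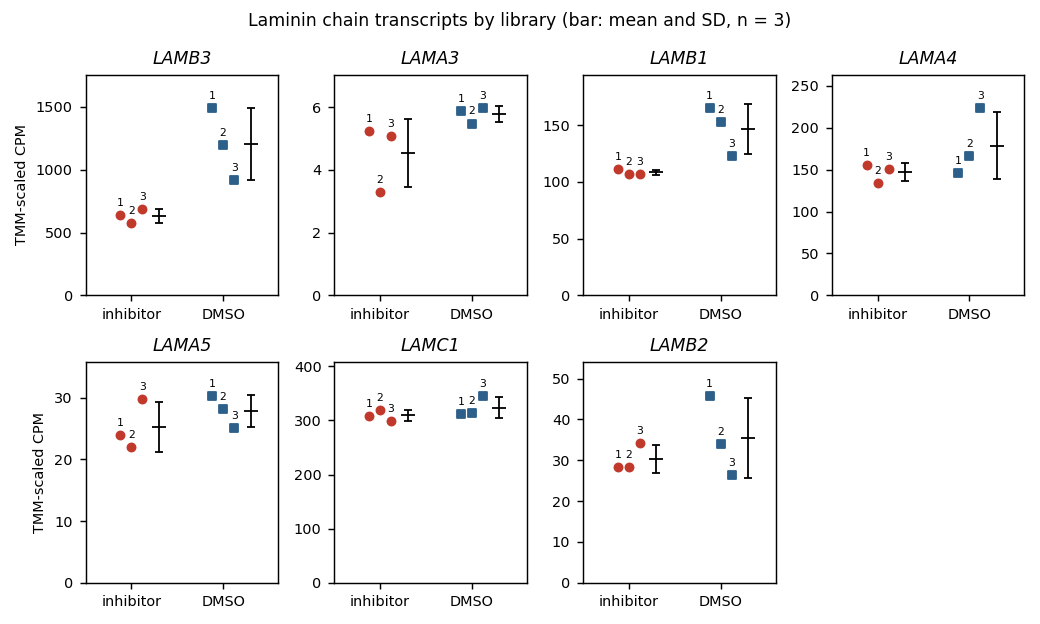
TMM-scaled CPM of laminin chain genes in each library, with the inhibitor libraries to the left of the DMSO libraries and bars at the means. LAMB3 is lower in every inhibitor library than in every DMSO library, and LAMB1 and LAMA3 likewise by a smaller step, LAMA3 at low counts. LAMC1, LAMA4, LAMA5 and LAMB2 overlap.

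The sequences before the start sites of LAMB3 and LAMA3 are shown because LAMB3 carried edgeR's only call with all libraries and LAMA3 is its partner chain. They were taken from RefSeq on GRCh38.p14, where 34 of the 44 genes (30 of the 36 tested) had an entry. The count files were made on hg19 and carry no coordinates. The LAMB3 stretch lies before the most downstream of the 3 start sites listed for the gene, at chr1:209651395-209651624 on the minus strand. Of the windows of these 3 starts, it was chosen because it alone holds a TGANTCA match. Capitals mark a TGANTCA match, the AP-1 motif, and a GGGCGG match, the GC box. The 2 LAMA3 stretches lie at chr18:23872884-23872912 and chr18:23872940-23872968 on the plus strand, with the AP-1 matches in capitals.
LAMB3: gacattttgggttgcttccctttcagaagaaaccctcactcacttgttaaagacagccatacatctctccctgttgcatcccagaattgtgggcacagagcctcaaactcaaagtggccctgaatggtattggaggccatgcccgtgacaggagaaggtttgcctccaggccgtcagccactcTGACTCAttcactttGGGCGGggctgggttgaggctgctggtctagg
LAMA3 stretch 1: ctggcacaggcTGACTCAtgtgtgaagtt
LAMA3 stretch 2: ccttcctcaccTGAGTCAggcaggcccgg
The AP-1 match of LAMB3 began 67 bases before its start and the GC box 52 bases before it. The LAMA3 matches began 125 and 69 bases before its start. TGANTCA was searched on either strand in the 250 bases before the start. It was found in 2 of 36 windows of the tested matrix genes and in 6.57% of all 35116 windows. Those 2 were a window of LAMB3 and a window of LAMA3. GGGCGG was found in 27 of the 36 windows and in 42.6% of all windows, and GGAATG, the TEAD motif, in 5 of the 36 and in 11.9% of all. These matches describe letters in a window and do not show binding.

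Type IV collagen, the network-forming collagen of basement membranes, was measured by COL4A1 and COL4A2. COL4A1 had 169, 182 and 156 CPM in inhibitor 1, 2 and 3, against 234, 211 and 233 CPM in DMSO 1, 2 and 3. COL4A2 had 359, 359.8 and 351 CPM in inhibitor 1, 2 and 3, against 503, 437 and 405 CPM in DMSO 1, 2 and 3. For both genes all inhibitor libraries lay below all DMSO libraries. COL4A1 had a log2 change of -0.42 (SE 0.117, adjusted p = 0.0643 in edgeR) and COL4A2 a log2 change of -0.33 (SE 0.116, adjusted p = 0.129 in edgeR). Neither passed in edgeR with all libraries, whereas DESeq2 called COL4A1 lower (adjusted p = 0.0222) but not COL4A2. Without DMSO 3 they stood at -0.41 (SE 0.101, edgeR adjusted p = 0.00376) and -0.41 (SE 0.0963, edgeR adjusted p = 0.00227). Without DMSO 1 they stood at -0.40 (SE 0.128, edgeR adjusted p = 0.092) and -0.25 (SE 0.120, edgeR adjusted p = 0.278). The ratio of COL4A1 to COL4A2 counts was 0.471, 0.506 and 0.445 with the inhibitor and 0.465, 0.482 and 0.576 with DMSO, a log2 difference of -0.09 (exact two-sided permutation p = 0.6), and it was 0.000264 without DMSO 3. The 2 genes lie head to head on opposite strands, with RefSeq starts 126 bases apart. The stretch between them at chr13:110307167-110307196, given on the plus strand, holds a CCAAT match in capitals that begins 105 bases before the COL4A2 start.
COL4A1-COL4A2: gggccgagctccCCAATttgttggcgctgc
CCAAT was found on either strand in 9 of the 36 windows, including those of both type IV chains, and in 32% of all windows. The windows of these chains share the stretch between their starts, so the match shown counts in both.

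The remaining basement membrane genes were the linkers and proteoglycans. HSPG2, which encodes perlecan, had 15.1, 9.54 and 13.8 CPM in inhibitor 1, 2 and 3, against 18.1, 18.5 and 15.3 CPM in DMSO 1, 2 and 3. Its groups did not overlap, with a log2 change of -0.44 (SE 0.180, adjusted p = 0.197 in edgeR) and -0.53 (SE 0.160, edgeR adjusted p = 0.0165) without DMSO 3, and it was -0.26 (edgeR adjusted p = 0.593) without inhibitor 2, the lowest library. COL18A1, the collagen with heparan sulfate chains from which endostatin is cut, had 14.4, 9.81 and 13.3 CPM in inhibitor 1, 2 and 3, against 17.4, 17.4 and 12.05 CPM in DMSO 1, 2 and 3. The groups overlapped through DMSO 3, and its log2 change of -0.33 (SE 0.190, edgeR adjusted p = 0.354) was -0.49 (SE 0.157, edgeR adjusted p = 0.022) without it and -0.18 (edgeR adjusted p = 0.775) without inhibitor 2, the lowest library. NID1, which links laminin to type IV collagen, had 71.8, 68.6 and 72.2 CPM in inhibitor 1, 2 and 3, against 75.9, 73.6 and 114 CPM in DMSO 1, 2 and 3. The groups did not overlap and DMSO 3 was the highest library, and the log2 change of -0.31 became -0.09 without it (edgeR adjusted p = 0.308 and 0.572). AGRN, a proteoglycan known from the neuromuscular junction, and NID2 had overlapping groups and log2 fold changes of -0.13 and -0.14.

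Of the 10 glycoprotein genes, 8 were tested and 0 passed in edgeR with all libraries (4 were lower at an unadjusted p under 0.05, and DESeq2 called TGFBI), all 8 had a negative log2 fold change and the median was -0.31. TGFBI, a secreted integrin-binding protein named for its induction by TGF-beta, had 18.3, 17.8 and 23.2 CPM in inhibitor 1, 2 and 3, against 32.2, 27.3 and 26.6 CPM in DMSO 1, 2 and 3. Every inhibitor library was below every DMSO library, with a log2 change of -0.54 (SE 0.151, adjusted p = 0.0615 in edgeR) and -0.61 (SE 0.136, edgeR adjusted p = 0.00152) without DMSO 3. Without DMSO 1, the highest library, the log2 change of TGFBI was -0.46 (SE 0.159, edgeR adjusted p = 0.123). FN1, which encodes fibronectin, had 228, 222 and 254 CPM in inhibitor 1, 2 and 3, against 263, 282 and 353 CPM in DMSO 1, 2 and 3. Its groups did not overlap and DMSO 3 was the highest, with a log2 change of -0.35 (SE 0.132, adjusted p = 0.151 in edgeR) and -0.23 (SE 0.0990, edgeR adjusted p = 0.0868) without that library. FBN2, a fibrillin of early microfibrils, had 41.6, 33.6 and 47.4 CPM in inhibitor 1, 2 and 3, against 50.99, 53.7 and 59.9 CPM in DMSO 1, 2 and 3. Again the groups did not overlap, with a log2 change of -0.42 (SE 0.145, adjusted p = 0.121 in edgeR) and -0.37 (SE 0.123, edgeR adjusted p = 0.0277) without DMSO 3. THBS2, a thrombospondin that limits vessel growth, had 57.1, 49.6 and 56.8 CPM in inhibitor 1, 2 and 3, against 83.8, 61.8 and 58.8 CPM in DMSO 1, 2 and 3. The inhibitor libraries were all lower, with a log2 change of -0.32 (SE 0.149, adjusted p = 0.25 in edgeR), and -0.43 (SE 0.119, edgeR adjusted p = 0.0084) without DMSO 3. Without DMSO 1, the highest library, it was -0.15 (SE 0.136, edgeR adjusted p = 0.584).

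For the 2 glycoprotein genes with the highest counts, DMSO 3 lay on opposite sides of the other controls. SPARC had 1623, 1750 and 1798 CPM in inhibitor 1, 2 and 3, against 2141, 2178 and 1583 CPM in DMSO 1, 2 and 3. DMSO 3 was below all inhibitor libraries and DMSO 1 and 2 above them, so the log2 change of -0.19 (SE 0.128, edgeR adjusted p = 0.445) became -0.34 (SE 0.0901, edgeR adjusted p = 0.00644) without it. The log2 change was -0.13 (SE 0.136, edgeR adjusted p = 0.645) without DMSO 1 and -0.11 (edgeR adjusted p = 0.781) without DMSO 2. THBS1 had 829.6, 791 and 812 CPM in inhibitor 1, 2 and 3, against 837, 843 and 1092 CPM in DMSO 1, 2 and 3. DMSO 1 and 2 were just above the inhibitor libraries and DMSO 3 well above, and the log2 change of -0.19 (SE 0.123, edgeR adjusted p = 0.428) became -0.07 (SE 0.0920, edgeR adjusted p = 0.655). FBN1, the main fibrillin, had a log2 change of -0.30 (SE 0.146, adjusted p = 0.279 in edgeR), and TNC, the tumour-associated tenascin, had a log2 change of -0.03 (SE 0.135, adjusted p = 0.922 in edgeR), with overlapping groups for both. POSTN had 1 count in the 3 inhibitor libraries together and 1 in the DMSO libraries, and FBLN1 had 0 and 5, so neither was tested.

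Of the 6 fibrillar collagen genes 3 were tested, 0 passed with all libraries in edgeR or DESeq2, 0 had an unadjusted p under 0.05 in edgeR and the median log2 fold change was -0.24, the value of COL1A2, with a range of -0.45 to -0.07 when 1 library was left out. COL5A1, a chain of type V collagen that starts collagen fibrils, had 5.96, 5.08 and 6.03 CPM in inhibitor 1, 2 and 3, against 9.85, 7.99 and 5.07 CPM in DMSO 1, 2 and 3. The groups overlapped through DMSO 3, with a log2 change of -0.45 (SE 0.227, adjusted p = 0.298 in edgeR) and -0.66 (SE 0.189, edgeR adjusted p = 0.0109) without it. Without DMSO 1, the highest library, it was -0.24 (SE 0.231, edgeR adjusted p = 0.635). COL1A1, a chain of type I collagen, the main collagen of bone and skin, had 4.49, 6.06 and 8.01 CPM in inhibitor 1, 2 and 3, against 7.51, 5.18 and 4.39 CPM in DMSO 1, 2 and 3. COL1A2, the other chain, had 2.04, 1.604 and 1.25 CPM in inhibitor 1, 2 and 3, against 1.64, 1.52 and 2.93 CPM in DMSO 1, 2 and 3. Both overlapped, with log2 fold changes of 0.09 and -0.24 whose signs turned to -0.07 and 0.05 without DMSO 3. COL5A2 had 13 counts in the 3 inhibitor libraries together and 10 in the DMSO libraries, a depth-corrected ratio of 1.37 (exact 95% interval 0.554 to 3.49, counting error only). COL3A1 had 1 and 0 summed counts and COL11A1 0 and 0.

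Of the 7 other collagen genes all were tested, 0 passed with all libraries in edgeR or DESeq2, 0 had an unadjusted p under 0.05 in edgeR, 4 were negative and 3 positive, and the median was -0.13. Type VI collagen forms beaded filaments near cells from chains including COL6A1, COL6A2 and COL6A3. COL6A1 had 229, 219 and 247 CPM in inhibitor 1, 2 and 3, against 262, 251 and 265 CPM in DMSO 1, 2 and 3. All inhibitor libraries were lower by a small step, with a log2 change of -0.16 (SE 0.111, adjusted p = 0.453 in edgeR). COL6A2 had 78.99, 74.3 and 75.6 CPM in inhibitor 1, 2 and 3, against 109.7, 91.4 and 66.3 CPM in DMSO 1, 2 and 3, and COL6A3 had 29.2, 19.7 and 25.2 CPM in inhibitor 1, 2 and 3, against 17.2, 20.5 and 31.97 CPM in DMSO 1, 2 and 3. In both the DMSO libraries spread more widely than the inhibitor libraries, with DMSO 3 lowest for COL6A2 and highest for COL6A3. Without DMSO 3 the log2 fold changes were -0.41 (SE 0.106, edgeR adjusted p = 0.00505) for COL6A2 and 0.38 (SE 0.148, edgeR adjusted p = 0.0654) for COL6A3, against -0.23 and 0.10 with all libraries. Without DMSO 1 they were -0.06 (SE 0.147, edgeR adjusted p = 0.877) for COL6A2 and -0.08 (SE 0.195, edgeR adjusted p = 0.876) for COL6A3, on the other side of 0 for the second gene. The ratio of COL6A2 to COL6A1 counts was 0.345, 0.338 and 0.306 with the inhibitor and 0.418, 0.363 and 0.250 with DMSO (exact two-sided permutation p = 0.9). COL13A1, a transmembrane collagen, had 157, 151 and 144 CPM in inhibitor 1, 2 and 3, against 134, 142 and 163 CPM in DMSO 1, 2 and 3, and COL12A1, which sits on collagen fibrils, had 37.7, 28.5 and 35.9 CPM in inhibitor 1, 2 and 3, against 35.1, 39.7 and 40.6 CPM in DMSO 1, 2 and 3. Both overlapped, with a log2 change of 0.04 (SE 0.121, adjusted p = 0.885 in edgeR) for COL13A1 and a log2 change of -0.17 (SE 0.142, adjusted p = 0.545 in edgeR) for COL12A1. COL7A1, the anchoring fibril collagen, and COL8A1 stood at -0.13 and 0.07.

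Among the 4 proteoglycan genes VCAN alone was tested. It had 12.2, 13.7 and 14.9 CPM in inhibitor 1, 2 and 3, against 17.6, 18.4 and 18.5 CPM in DMSO 1, 2 and 3. The groups did not overlap, with a log2 change of -0.42 (SE 0.146, adjusted p = 0.125 in edgeR) and -0.43 (SE 0.145, edgeR adjusted p = 0.0333) without DMSO 3. BGN had 1 count in the 3 inhibitor libraries together and 4 in the DMSO libraries, DCN 0 and 1, and LUM 1 and 0. A count of 0 allows up to 0.0907 CPM in the inhibitor group and 0.0862 CPM in the DMSO group.

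All 3 crosslinking enzyme genes were tested, 0 passed in edgeR with all libraries (1 was lower at an unadjusted p under 0.05, and DESeq2 called LOX) and the median was -0.28. LOX, the lysyl oxidase that starts crosslinks in collagen and elastin, had 72.5, 76.5 and 69.2 CPM in inhibitor 1, 2 and 3, against 104, 89.2 and 105 CPM in DMSO 1, 2 and 3. Its inhibitor libraries were all lower, with a log2 change of -0.45 (SE 0.123, adjusted p = 0.0583 in edgeR) and -0.43 (SE 0.106, edgeR adjusted p = 0.00393) without DMSO 3. LOXL2, an enzyme of the same family, had 402, 374 and 385 CPM in inhibitor 1, 2 and 3, against 576, 418 and 412 CPM in DMSO 1, 2 and 3. The groups did not overlap, but DMSO 2 and 3 were much closer to the inhibitor libraries than DMSO 1, with a log2 change of -0.28 (SE 0.137, adjusted p = 0.283 in edgeR). It was -0.38 (SE 0.107, edgeR adjusted p = 0.011) without DMSO 3 and -0.11 (SE 0.120, edgeR adjusted p = 0.682) without DMSO 1. LOXL1, known for its part in elastic fibres, had 23.2, 19.8 and 18.7 CPM in inhibitor 1, 2 and 3, against 22.8, 23.3 and 19.6 CPM in DMSO 1, 2 and 3, with overlapping groups and a log2 change of -0.09 (SE 0.145, adjusted p = 0.783 in edgeR).

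Further lists of genes around the matrix genes were examined in the same fit. None of 25 tested genes of collagen folding and processing (29 listed), 5 further collagen and laminin chains (32 listed) or 7 elastic fibre and fibulin genes (17 listed) passed in either direction, with median log2 fold changes of -0.06, 0.03 and -0.38. At an unadjusted p under 0.05 in edgeR, 1 of 25, 0 of 5 and 3 of 7 were lower and 0 higher, against 9.23% lower over all genes, and DESeq2 called 0 in each list. Without DMSO 3, edgeR called 4 of 25 folding and processing genes lower, where 11.1% of all genes were called lower, namely the lysyl hydroxylases PLOD1 and PLOD3, the prolyl hydroxylase P3H1 and LOXL3, and it called LTBP4, 1 of 8 tested, of the elastic fibre list. Among 11 genes of matrix-regulating cytokine signalling, all tested, 2 fell and 0 rose, against 1.92% lower and 1.95% higher over all genes. At an unadjusted p under 0.05 in edgeR, 2 were lower and 1 higher, against 9.23% and 10.3% over all genes. The higher gene, TGFBR1, had a log2 change of 0.32 (SE 0.140, edgeR adjusted p = 0.225). It was 0.42 (SE 0.118, edgeR adjusted p = 0.00967) without DMSO 3 and 0.25 (SE 0.148, edgeR adjusted p = 0.392) without DMSO 1. CTGF, a secreted matricellular protein and 1 of those that fell, had 292, 312 and 295 CPM in inhibitor 1, 2 and 3, against 1040, 1079 and 1026 CPM in DMSO 1, 2 and 3. The groups were far apart, with a log2 change of -1.81 (SE 0.108, adjusted p = 6.93e-07 in edgeR).

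DMSO 3 differed from DMSO 1 and 2 in a way that followed GC content among the matrix genes too. It was below both other controls for 17 of the 36 tested genes, above both for 17 and between them for 2. Across these 36 genes, which share the same 3 libraries, the Spearman correlation between GC content and the log2 difference of DMSO 3 from the mean of DMSO 1 and 2 was -0.59, given as a description. LAMB3, at 59.5% GC, was -0.54 log2 units from the other controls, COL6A2, at 65.1% GC, -0.59, and NID1, at 51.5% GC, 0.61. The median GC content of the tested matrix genes was 52.3%, against 49.3% over all tested genes. With the GC trend of each library removed, LAMB3 stood at -0.87 in log2 units (edgeR adjusted p = 0.000675). GC content here is that of the annotated transcripts and not of the PCR products. The part of amplification in these differences, that of LAMB3 included, was not tested.

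**Figure D4:**
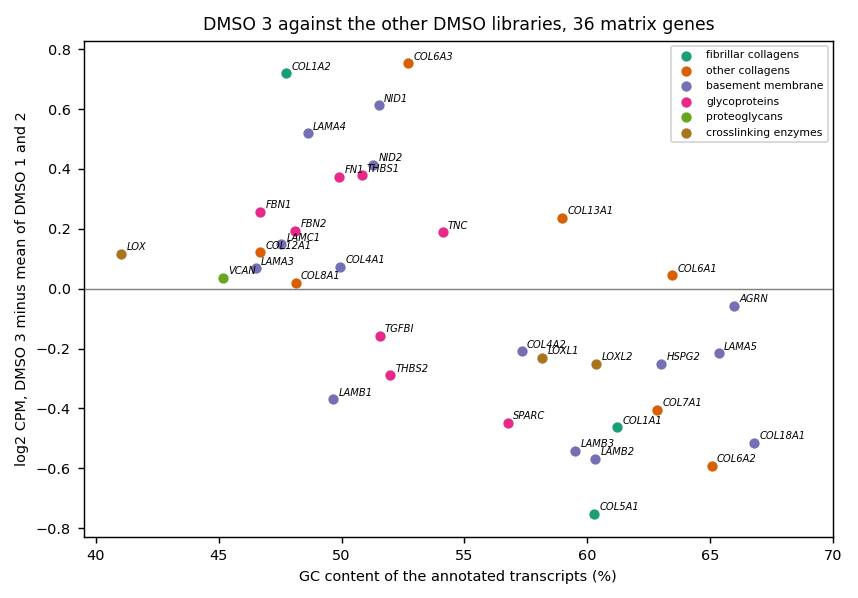
Log2 difference of DMSO 3 from the mean of DMSO 1 and DMSO 2 against the GC content of the gene (%), for the 36 tested matrix genes. Genes of high GC content such as COL6A2 and LAMB3 lie below 0 and genes such as NID1 and LAMA4 above it, with exceptions such as COL6A1 and COL13A1 above 0 and LAMB1 below it.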

How the data were processed

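Counts were measured in 6 libraries of HT-1080 cells, 3 with the inhibitor and 3 with DMSO, grouped by the treatment in the labels. Per the labels' protocols, libraries were made with the Ion AmpliSeq Transcriptome Human Gene Expression Panel. The authors deposited unnormalized counts, 1 file per library, listed by gene symbol. HTSeq, DESeq2 1.20.0 and the build hg19 are named, with no roles, per the submitters' processing notes. The aligner and the use of strand are not given in the sources used here, so reads of antisense genes or pseudogenes cannot be told apart. No molecular identifiers are named, so intervals cover counting error only.

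The test was edgeR 4.0.16 (R 4.3.3): filterByExpr (count of at least 10, total of at least 15), TMM, the quasi-likelihood test on group and Benjamini-Hochberg adjustment over 11216 genes at 0.05. The SE is the absolute log2 fold change divided by the square root of F. Alternatives were DESeq2 1.42.0, its size factors, library totals, no filter, a mean count of at least 50, limma-voom (limma 3.58.1) with and without quality weights, a replicate block, removal of each library's GC trend (span 0.5, GC from GENCODE 29 by symbol for 98.9% of tested genes) and leaving out each library. The fits were tested on simulated counts that held no GC trend and no deviating library, so their behaviour under those was not tested. Motifs were searched in 250 bases before RefSeq starts; LAMB3 is printed without its last 20 bases, an annotated exon. Replicates of a group differed by more than counting noise (chi-square per degree of freedom 5.39 to 38.8). The 44 genes, the lists, the ratios and the use of fits without DMSO 1 or DMSO 3 were chosen with earlier results of these data known. The fixed rule gave values in all libraries for each gene past the threshold with or without DMSO 3, and in each group for the 3 highest in DMSO and the 2 largest changes. Some genes and 1 of the 5 ratios are not reported here.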

Additional observations from a re-analysis of the deposited data

How the results depend on the processing

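The count of matrix genes called, all lower, was 1 and became 5 without the filter on low counts, with DESeq2 and with the GC trend removed, 14 with library quality weights, and 0 to 16 when 1 library was left out (0 without inhibitor 2, 16 without DMSO 3). It stayed at 1 with size factors of DESeq2, library totals, a mean count of at least 50, limma-voom and a replicate block. LAMB3 had a negative log2 fold change under all 15 alternatives, from -1.10 to -0.75, and its adjusted p, 0.00442 in edgeR with all libraries, missed the threshold only without inhibitor 2. Over all genes the count of 434 became 831 without the filter, 722 with the GC trend removed, 2606 with quality weights and 99 to 2496 with 1 library left out. The cause of these changes was not tested.

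The median log2 fold change of the matrix genes ranged from -0.30 to -0.20 over the alternatives. With 1 library left out, the basement membrane median ranged from -0.37 to -0.22, that of the crosslinking enzymes from -0.38 to -0.11 (without DMSO 1), that of the fibrillar collagens from -0.45 to -0.07 and that of the other collagens from -0.15 to -0.06. With quality weights, the fibrillar collagen median turned to 0.032 and rested on COL1A2, at 0.032. With 1 library left out, COL1A1 ranged from -0.13 (without inhibitor 3) to 0.33 and was -0.07 without DMSO 3, COL1A2 from -0.45 to 0.050 (without DMSO 3) and COL13A1 from -0.023 (without DMSO 1) to 0.11. The log2 difference of the COL4A1 to COL4A2 ratio ranged from -0.15 to 0.000264 (without DMSO 3), and that of COL6A2 to COL6A1 from -0.24 (without DMSO 3) to 0.13 (without DMSO 1), with 0.023 without inhibitor 3 and 0.026 without DMSO 2. With quality weights, the genes called in either direction were 2 of 25 of collagen folding and processing and 1 of 5 further chains. In the elastic fibre list they were 3 of 7 and in the cytokine list 4 of 11. Over all genes, 2606 of 11216 were called with these weights. With 1 library left out the counts of these 4 lists ranged from 0 to 4, 0 to 0, 0 to 1 and 1 to 3. The counts of 4, 1 and 3 came without DMSO 3, where 2496 of 11386 genes were called.

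Replicate numbers did not pair the libraries: deviations from the group means of libraries with the same number correlated at -0.0414, -0.0378 and -0.0882. With the replicate block, 1 matrix gene (LAMB3) was called lower and the matrix median was -0.25. Genes below about 10 counts per library were too shallow for a test, and amplified reads without molecular identifiers carry more error than their counts show.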
